A study of Mus musculus with 36 samples.

Results

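Apart from Cebpz, the genes whose RNA was lowered with the smallest p values after depletion of YTHDC1 in mouse embryonic stem (mES) cells included Cpne1, Mipol1, Gm2381, Irgq, Idh2, Acp2 and Ddx11. These 7 genes were taken by symbol from the 18419 genes listed in all 6 tables of the series (22979 were listed in any). They were chosen on the YTHDC1 line itself, so their values in that line are given as a description with no test. The METTL3 and ZCCHC8 lines, which had no part in the choice, carry the tests. Among the genes lower in dTAG libraries of the YTHDC1 line, the 7 held places from 2 to 10 by p, behind Cebpz (log2 difference of −2.01, SE 0.09). Other genes stood between them in that order, among them Gm43597 (−1.92, SE 0.15), which is named here because of its value. Just inside the last place was Ddx11 (−0.91, SE 0.09) and just outside it Gm14412 (−0.97, SE 0.10). By the size of the log2 difference the 7 genes held places from 9 (Mipol1) to 164 (Idh2).

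N6-methyladenosine (m6A) is written into RNA by a complex whose catalytic subunit is METTL3. YTHDC1 is a nuclear protein that reads m6A and is known for roles in the splicing, export and turnover of nuclear RNA. ZCCHC8 is the scaffold of the NEXT complex, which hands short-lived nuclear RNA to the exosome for decay. Of the 7 genes, Idh2 encodes the mitochondrial NADP-dependent isocitrate dehydrogenase and Acp2 a lysosomal acid phosphatase. Cpne1 encodes copine 1, which binds phospholipids in the presence of calcium, Irgq a member of the immunity-related GTPase family, and Ddx11 an iron-sulphur DNA helicase that acts in sister chromatid cohesion. Mipol1 encodes a coiled-coil protein. Gm2381 is a predicted gene that GENCODE lists as protein coding and RefSeq as a transcribed pseudogene.

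RNA was followed by SLAM-seq, in which cells take up the uridine analogue 4-thiouridine (4sU) and labelled RNA is read with T-to-C mismatches. The 36 libraries came from XX mES cells of a Cast x 129S background, plated on gelatin after preplating had removed the feeder cells, with endogenous Xist carrying Bgl stem loops under a TetOn promoter on the 129S allele. There were 3 lines, each 1 clone, with an FKBP12 F36V degron tag on METTL3 (12D), YTHDC1 (Y12H) or ZCCHC8 (Z12H). Doxycycline (1 µg/ml) induced Xist in every library, starting 20 h ahead of a 4 h pulse of 500 µM 4sU and continuing through it, and 50 mM uridine then chased the label for 0, 90 or 180 min. The dTAG arm received dTAG-13, which sends the tagged protein to degradation, starting 2 h ahead of doxycycline, and the Ctrl arm did not. Each of the 18 groups had 2 replicates. In what follows, "new" RNA is the labelled share of a gene's reads and "old" RNA the rest. dTAG-13 was added long before the pulse, so old RNA also includes RNA made after its addition. At 90 and 180 min, old RNA includes RNA made during the chase as well. The fits of new and old RNA pool all chase times.

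The libraries held 5274684 to 18652000 reads assigned to genes, and the 7 genes averaged from 66.9 (Irgq, YTHDC1 line) to 1682 (Idh2, METTL3 line) reads per library. The summed level of 8 embryonic stem cell markers ran from 2493 to 3862 reads per 1000000 TMM-scaled reads (CPM), that of 8 feeder fibroblast markers from 26.0 to 61.9 CPM and that of 6 primitive endoderm markers from 7.32 to 36.4 CPM. In the METTL3 line the endoderm sum spanned 7.32 to 21.2 CPM without and 15.4 to 36.4 CPM with dTAG-13, with 1 of the markers called higher there and 1 in the ZCCHC8 line, and its part in the results was not tested. Bulk RNA cannot tell fewer cells of a type from less RNA per cell. The transcript of a degron-tagged gene does not check the loss of its protein. Ythdc1 RNA was higher in dTAG libraries of its own line (log2 0.59, SE 0.10, edgeR adjusted p = 0.0053) and of the METTL3 line (0.61, SE 0.12, adjusted p = 0.0052), while Mettl3 RNA (0.02, SE 0.09) and Zcchc8 RNA (0.07, SE 0.07) did not pass the test in theirs.

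The places of 2 of the genes bear on how their reads can be told from those of other genes. Cpne1 (ENSMUSG00000074643) lies on the minus strand of chromosome 2 (chr2:156071842-156111965, mm10), and Rbm12, on the same strand within the Cpne1 body, starts 13 bases upstream of it. RefSeq gives both genes 1 and the same promoter. The 250 bases before the Cpne1 start (chr2:156111966-156112215, minus strand, RefSeq GRCm38.p6) are shown because both genes are read from this stretch, with the 13 bases that GENCODE places in Rbm12 but not in Cpne1 in capitals.
Cpne1 and Rbm12 promoter: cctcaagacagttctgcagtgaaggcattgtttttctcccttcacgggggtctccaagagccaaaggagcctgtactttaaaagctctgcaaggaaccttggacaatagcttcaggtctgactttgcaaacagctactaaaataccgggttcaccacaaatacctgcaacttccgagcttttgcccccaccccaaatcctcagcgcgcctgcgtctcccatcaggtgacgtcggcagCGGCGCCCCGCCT
Mipol1 (ENSMUSG00000047022, plus strand, chr12:57230427-57497199) likewise starts 15 bases from Prps1l3, which lies on the same strand within its body.

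The other 5 genes stand apart from any same-strand gene in the GENCODE annotation that the tables also list. Irgq (ENSMUSG00000041037) lies on chr7:24530689-24538600, Idh2 (ENSMUSG00000030541) on chr7:80094846-80115392, Acp2 (ENSMUSG00000002103) on chr2:91202885-91214098 and Ddx11 (ENSMUSG00000035842) on chr17:66123520-66152174. Gm2381 (ENSMUSG00000092225) lies on chr7:42816829-42867234 with no annotated gene within 10 kb. The end of Acp2 overlaps the end of Ddb2 on the opposite strand. Whether strand was used in counting was not stated.

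GGACT, a form of the sequence in which the METTL3 complex is known to place m6A, was searched for on the sense strand of 1 transcript per gene. This was the longest annotated transcript of the gene's own biotype, protein coding for all 7. Of the genes tested in the YTHDC1 line that had a transcript, 92.0% held at least 1 match, with a median of 3. Acp2 held 11 (3 in the coding sequence and 8 in the 3′ untranslated region), Ddx11 7 (3 and 4), Irgq 6 (3 and 3), Cpne1 4, all in the coding sequence, and Mipol1 1, in the coding sequence. No match was found in the 1745 bases of Idh2 or the 4073 bases of Gm2381. The first coding match that lies whole within 1 exon, with 10 bases on each side, is shown for the genes that have one, with GGACT in capitals. m6A itself was not measured in these libraries, and a match is no evidence of a modified site.
Cpne1, exon 11, chr2:156077797-156077821, minus strand: attccttcctGGACTatgtgatggg
Irgq, exon 2, chr7:24531501-24531525, plus strand: atggacggcaGGACTctggagtccc
Acp2, exon 4, chr2:91205806-91205830, plus strand: caacctggctGGACTcttccctccc
Ddx11, exon 26, chr17:66150586-66150610, plus strand: ggcaccagagGGACTttgccagcat

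The annotated structure of the 7 genes varied widely. Their longest protein-coding transcripts ran from 1745 (Idh2) to 6083 (Irgq) bases, beside a median of 3115 over the genes tested. They held from 3 exons (Irgq) to 27 (Ddx11), beside a median of 9. The gene body spanned from 7912 bases in Irgq to 266773 in Mipol1, beside a median of 23917. The GC content ran from 37.4% in Gm2381 to 55.8% in Irgq, beside a median of 50.3%.

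The first question was how far the RNA of each gene was lowered in the YTHDC1 line and whether new or old RNA was lower. All 6 dTAG libraries lay below all 6 Ctrl libraries for each of the 7 genes. This held for 1.23% of the 13700 genes tested, and the choice of the genes leaves nothing to be read from the count. In this line 2.92% of all genes were called lower by edgeR at an adjusted p under 0.05, and the median log2 difference over the 7 was −1.14.

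Among the enzymes, Idh2 was measured at 122.5, 163.5 and 205.4 CPM (lowest, median and highest of 6 Ctrl libraries) and at 77.4, 99.7 and 116.3 CPM in dTAG, a log2 difference of −0.71 (SE 0.06). Acp2 stood at 19.0, 21.2 and 26.7 CPM in Ctrl and at 10.1, 11.1 and 13.65 CPM in dTAG (−0.92, SE 0.09). Ddx11 stood at 44.7, 55.0 and 68.3 CPM in Ctrl and at 25.7, 30.6 and 36.3 CPM in dTAG (−0.91, SE 0.09). Of the 7 genes, these 3 had the smallest differences. Per kb of the gene length given with the counts, Idh2 was the highest of the 7 in Ctrl libraries (88.9 CPM per kb), and Irgq the lowest (1.23 CPM per kb).

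Cpne1, the copine, was measured at 82.95, 90.6 and 124 CPM in Ctrl and at 33.3, 39.9 and 58.2 CPM in dTAG (−1.21, SE 0.07). Irgq, of the immunity-related GTPase family, stood at 6.26, 7.27 and 9.48 CPM in Ctrl and at 2.21, 2.89 and 4.155 CPM in dTAG (−1.31, SE 0.12). Its libraries held as few as 27 reads. Mipol1 stood at 20.6, 21.5 and 23.8 CPM in Ctrl and at 7.19, 8.56 and 9.92 CPM in dTAG (−1.36, SE 0.10). The predicted gene Gm2381 stood at 39.0, 43.0 and 48.8 CPM in Ctrl and at 17.2, 19.75 and 21.8 CPM in dTAG (−1.14, SE 0.09). In each of the 6 pairs of libraries with the same replicate number and chase time, all 7 genes were lower in dTAG, from −0.55 (Ddx11) to −1.66 (Mipol1) on the log2(CPM + 0.5) scale.

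**Figure D1:**
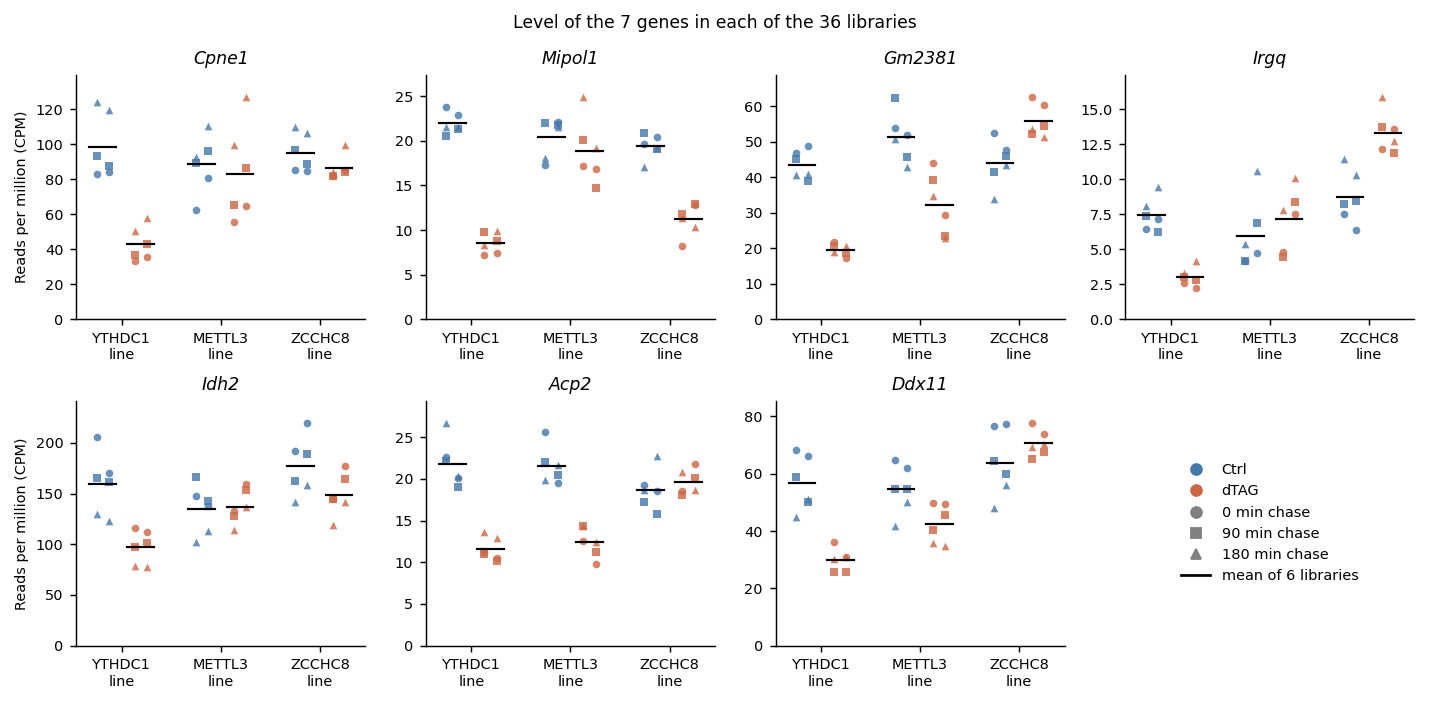
CPM of each of the 7 genes in all 36 libraries, on linear axes that start at 0, by line and arm (blue Ctrl, orange dTAG), with the symbol giving the chase time and the bar the mean of 6 libraries. In the YTHDC1 line no dTAG point reaches a Ctrl point for any gene, whereas in the METTL3 line that holds for Acp2 alone and in the ZCCHC8 line for Mipol1, with Irgq apart in the opposite direction.

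Both new and old RNA were lower in the YTHDC1 line, in the fit over all chase times and in every pair of libraries. New RNA differed by −1.19 (SE 0.13) in Mipol1, −1.10 (SE 0.12) in Cpne1, −1.05 (SE 0.12) in Acp2 and −1.04 (SE 0.14) in Gm2381, and by −0.69 (SE 0.11) in Ddx11 and −0.58 (SE 0.11) in Idh2, all on the log2(CPM + 0.5) scale. Old RNA differed by −1.41 (SE 0.16) in Mipol1, −1.36 (SE 0.22) in Gm2381, −1.33 (SE 0.12) in Cpne1, −1.06 (SE 0.17) in Ddx11, −0.73 (SE 0.08) in Idh2 and −0.62 (SE 0.15) in Acp2. In 5 of these 6 genes the difference was the larger in old RNA, and in Acp2 it was the larger in new RNA. The all-gene medians were −0.01 for new and 0.02 for old RNA. limma called 2.88% of 9907 genes in new RNA (2.0% lower, 0.878% higher) and 0.777% in old RNA (0.464% lower, 0.313% higher). Irgq averaged under 100 reads, the minimum for this fit, and without that minimum it differed by −1.19 (SE 0.145) in new and −0.97 (SE 0.17) in old RNA. The log2 odds of new against old RNA were higher by 0.14 (SE 0.11) in Idh2 and 0.23 (SE 0.20) in Cpne1. They were higher by 0.26 (SE 0.22) in Mipol1, 0.36 (SE 0.31) in Gm2381 and 0.37 (SE 0.22) in Ddx11. Acp2 was lower by −0.43 (SE 0.19), beside an all-gene median of −0.04. In this comparison 0.131% of genes were called (0.0404% lower, 0.0908% higher). At 180 min the order was reversed in both pairs of Cpne1, Mipol1 and Ddx11, where new RNA differed by more than old RNA. By that time old RNA includes RNA made during the chase. For Cpne1 the differences were −1.42 and −1.12 in new and −1.18 and −0.95 in old RNA.

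**Figure D2:**
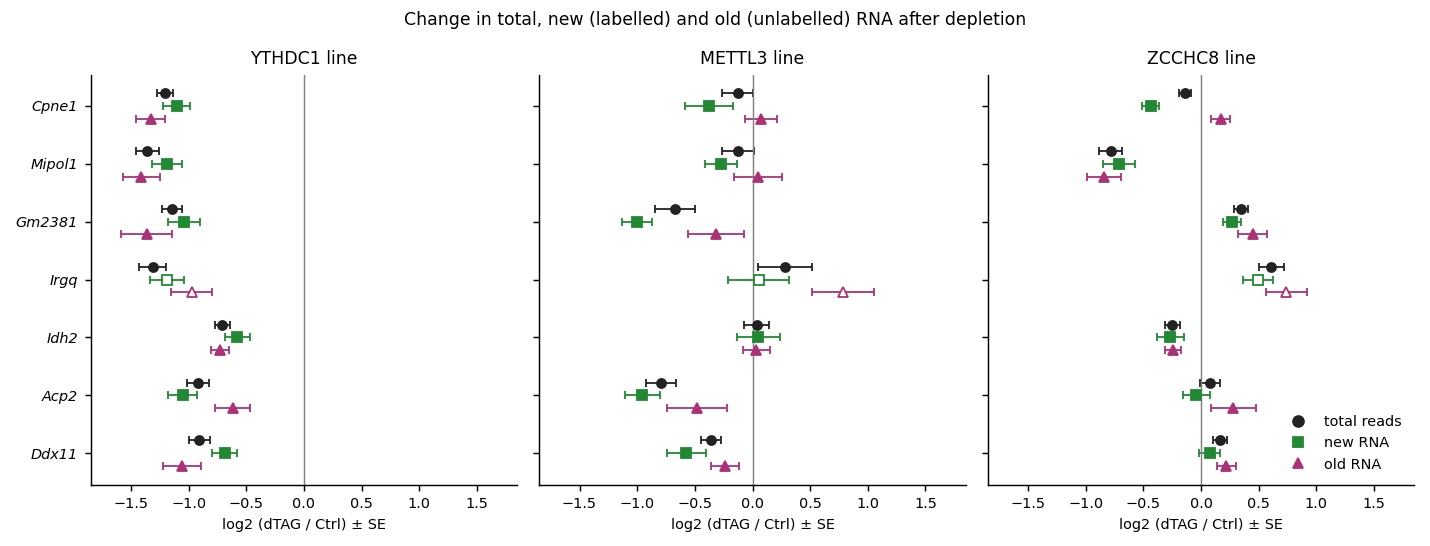
Log2 difference (dTAG over Ctrl, with SE) in total reads (black circles), new RNA (green squares) and old RNA (purple triangles) for each gene in each line, with open symbols for Irgq, fitted without a minimum of reads. In the YTHDC1 line every symbol lies to the left of 0, while in the other lines the genes spread to both sides.

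At the end of the pulse, before any chase, the split was clearest for Gm2381. Its new RNA stood at 25.4 and 29.5 CPM in the 2 Ctrl libraries and at 16.4 and 13.4 CPM in dTAG, and its old RNA at 21.4 and 19.3 CPM in Ctrl and at 5.4 and 3.86 CPM in dTAG. The log2 differences were −0.88 ± 0.36 for new and −2.15 ± 0.24 for old RNA (mean ± SD of 2 pairs). The new share of its reads was 54.3% and 60.4% in Ctrl and 75.2% and 77.6% in dTAG. The raw share of T positions read as C, which does not rest on the GRAND-SLAM model, was 4.69% and 5.04% in Ctrl and 5.24% and 6.47% in dTAG.

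Cpne1 and Mipol1 were split in the same manner at this time. Old Cpne1 RNA stood at 43.65 and 39.1 CPM in Ctrl and at 14.5 and 13.2 CPM in dTAG (−1.58 ± 0.02), and new Cpne1 RNA at 39.3 and 45.0 CPM in Ctrl and at 18.8 and 22.5 CPM in dTAG (−1.03 ± 0.04). For Mipol1 the differences were −2.04 ± 0.09 in old and −1.36 ± 0.03 in new RNA. Ddx11, the cohesion helicase, had old RNA at 42.1 and 41.6 CPM in Ctrl and at 17.6 and 15.55 CPM in dTAG (−1.34 ± 0.11), with new RNA at −0.58 ± 0.13. In each of these 3 genes the new share was above both Ctrl libraries in both dTAG libraries. The raw T-to-C share separated the arms in Ddx11 (3.45% and 3.25% in Ctrl, 3.80% and 4.25% in dTAG). It overlapped in Cpne1 (3.88% and 4.31% in Ctrl, 4.13% and 5.115% in dTAG). In Mipol1 it was 3.86% and 4.32% in Ctrl and 4.54% and 4.326% in dTAG, so that replicate 2 hardly differed.

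Idh2 and Acp2 did not show this split. New RNA made up 14.8% and 13.2% of Idh2 reads in Ctrl and 13.9% and 15.0% in dTAG, and old and new RNA differed alike, by −0.72 ± 0.12 and −0.66 ± 0.35. For Acp2 the new share was 71.85% and 76.05% in Ctrl and 68.15% and 76.4% in dTAG, with differences of −0.90 ± 0.08 in old and −1.01 ± 0.12 in new RNA. Irgq was 77.5% and 87.3% new in Ctrl and 81.5% and 93.3% new in dTAG, but the 0.05 and 0.95 posterior quantiles of its share were 0.758 and 0.981 in the dTAG library of replicate 2, which held 27 Irgq reads. Its old RNA, at 1.45 and 0.91 CPM in Ctrl and 0.49 and 0.15 CPM in dTAG, was thus poorly measured.

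**Figure D3:**
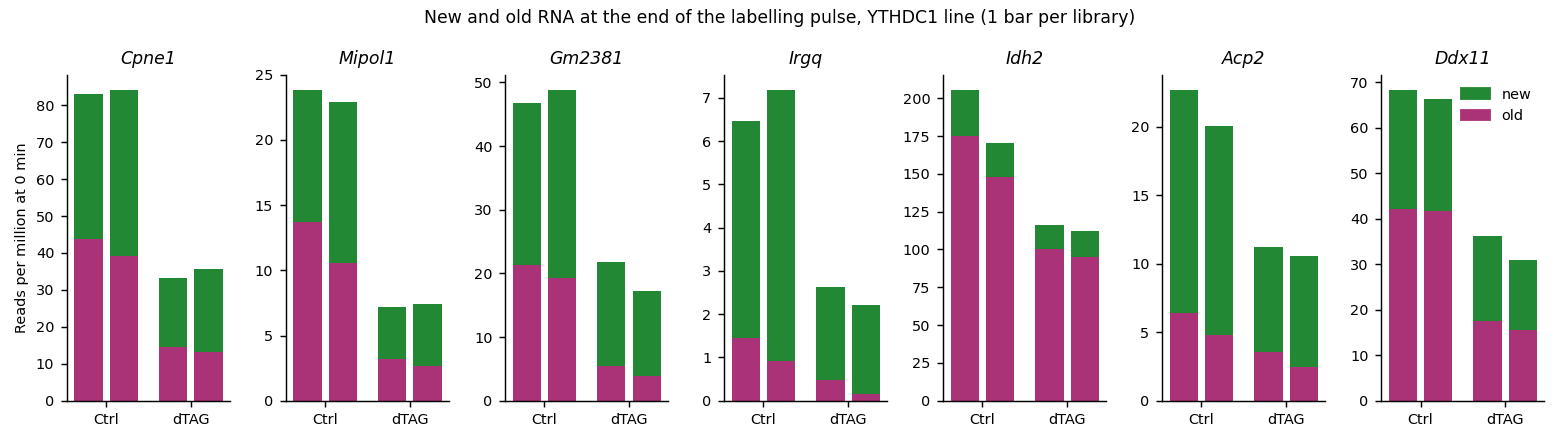
CPM at 0 min of chase in the YTHDC1 line, 1 bar per library (2 Ctrl, 2 dTAG), split into old (purple, bottom) and new (green, top) RNA, each gene on its own axis starting at 0. Both parts are shorter in dTAG, and the old part shrinks more than the new part in Cpne1, Mipol1, Gm2381 and Ddx11, about as much in Idh2 and no more in Acp2.

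The new share then changed through the chase at rates that differed between the genes. In Ctrl libraries of the YTHDC1 line, the share at 180 min, as a percentage of that at 0 min in each replicate, was 55.6% and 36.8% in Irgq. In Acp2 it was 71.6% and 53.2%. It was 97.2% and 90.6% in Cpne1 and 101.2% and 92.4% in Ddx11, and 115.5% and 155.7% in Idh2. The median gene kept 80.25% and 72.5%. Irgq and Acp2 thus lost label below the median gene in both replicates, and Cpne1, Ddx11 and Idh2 stayed above it.

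In dTAG libraries of this line less of the starting share was left in 6 of the 7 genes, by the mean of 2 replicates, Idh2 being the exception. Gm2381 kept 42.9% and 67.2%, against 94.5% and 80.5% in Ctrl. Ddx11 kept 61.6% and 60.3%, Cpne1 74.0% and 72.0%, and Mipol1 70.6% and 72.1%, against 121.8% and 95.25% in Mipol1 Ctrl libraries. For these 4 genes both dTAG values lay below both Ctrl values. How many of all genes did so was not counted. The median gene kept 71.5% and 72.9% in dTAG, against 80.25% and 72.5% in Ctrl, so Cpne1 and Mipol1 lay near the median gene in dTAG. The difference in slope was −0.23 log2 per h (SE 0.09) in Gm2381, −0.22 (SE 0.09) in Ddx11, −0.20 (SE 0.09) in Mipol1, −0.12 (SE 0.08) in Cpne1, −0.09 (SE 0.08) in Acp2 and 0.05 (SE 0.07) in Idh2, where the all-gene median was −0.03. The slope of Gm2381 was −0.09 without replicate 1 and −0.38 without replicate 2. Over the whole table limma called 0% of 9907 genes in this comparison.

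**Figure D4:**
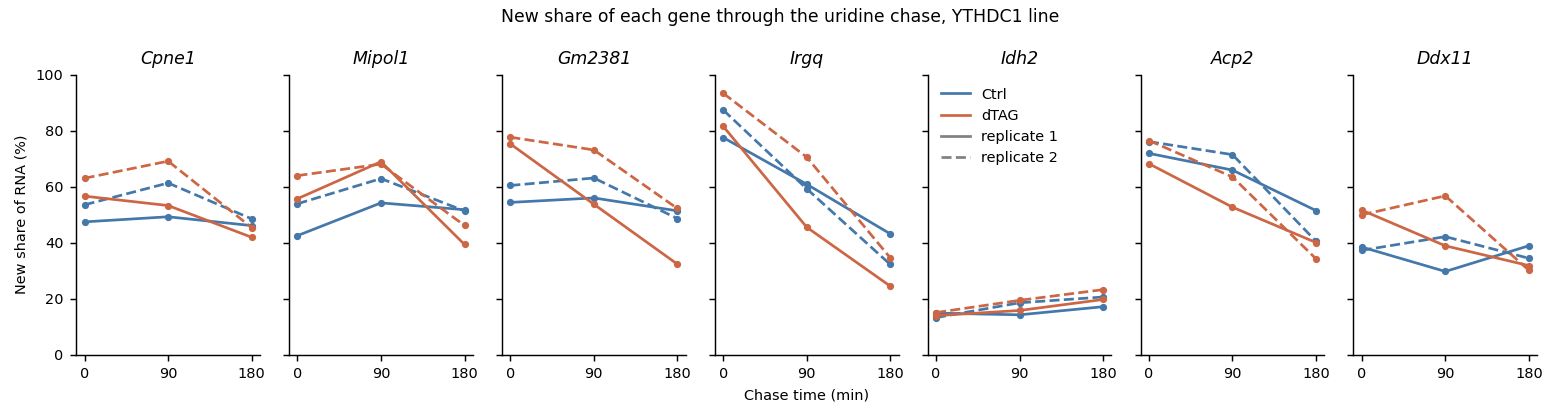
New share of each gene's reads (%) at 0, 90 and 180 min of chase in the YTHDC1 line, for Ctrl (blue) and dTAG (orange), with replicate 1 as solid and replicate 2 as dashed lines. Irgq and Acp2 fall steeply in both arms and Idh2 stays low, while for Cpne1, Mipol1, Gm2381 and Ddx11 the dTAG lines start above the Ctrl lines and have come down to or below them by 180 min, apart from replicate 2 of Gm2381.

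The next question was what depletion of METTL3, the m6A writer, did to these genes. Acp2, Gm2381 and Ddx11 fell, and the other 4 did not pass the test. edgeR called 8.66% of 13819 genes lower and 19.9% in either direction, beside 3 of the 7 called lower and 0 higher. The median over the 7 was −0.13, and over all genes 0.01.

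Acp2 RNA stood at 19.5, 21.1 and 25.6 CPM in Ctrl and at 9.81, 12.5 and 14.4 CPM in dTAG, with no overlap (−0.79 with SE 0.13, lower in 6 of 6 pairs, edgeR adjusted p = 0.0021). Dropping below every Ctrl library was seen for 2.74% of genes in this line. Gm2381 stood at 43.1, 51.4 and 62.4 CPM in Ctrl and at 23.05, 32.1 and 44.0 CPM in dTAG (−0.67, SE 0.17, adjusted p = 0.019, lower in 6 of 6 pairs), and only its highest dTAG library reached the Ctrl range. Ddx11 stood at 41.8, 54.6 and 64.9 CPM in Ctrl and at 34.7, 42.9 and 49.95 CPM in dTAG (−0.36, SE 0.09, adjusted p = 0.013, lower in 6 of 6 pairs), with overlapping ranges.

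Cpne1 spread widely in this line, at 62.8, 91.2 and 110.7 CPM in Ctrl and at 55.4, 76.1 and 127.2 CPM in dTAG, and the arms overlapped (−0.13, SE 0.13, edgeR adjusted p = 0.54). Mipol1 differed by −0.13 (SE 0.14, adjusted p = 0.57), Idh2 by 0.04 (SE 0.11, adjusted p = 0.86) and Irgq by 0.28 (SE 0.23, adjusted p = 0.44), all with overlapping arms. Without replicate 1, Mipol1 (−0.37, adjusted p = 0.0031) and Idh2 (0.19, adjusted p = 0.014) passed as well, whereas without replicate 2 they stood at 0.13 and −0.11 and did not pass. The edgeR calls of Acp2, Gm2381 and Ddx11 held without either replicate. Such fits kept 1 library per arm and chase time, so they rest on chase libraries that are not independent. Over all genes of this line they gave more calls than the main fit, so a call kept or gained there says little. The 3 calls were lost when the chase libraries of a replicate were summed, where no gene of the whole table passed.

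After METTL3 depletion 3 genes passed in new RNA. New Gm2381 RNA stood at 23.6, 32.2 and 34.4 CPM in Ctrl and at 10.1, 14.4 and 23.2 CPM in dTAG (−1.002, SE 0.13, limma adjusted p = 0.0010), and new Acp2 RNA at 10.2, 14.9 and 18.9 CPM in Ctrl and at 5.19, 6.60 and 10.85 CPM in dTAG (−0.96, SE 0.15, adjusted p = 0.0023). New Ddx11 RNA differed by −0.575 (SE 0.17, adjusted p = 0.042). These 3 of 6 genes fell where 11.4% of 9879 genes were called lower and 3.22% higher. In old RNA, where 3.26% of genes were called lower and 14.2% higher, 0 of 6 passed with limma, and 0 had an unadjusted p under 0.05, with Acp2 at −0.48 (SE 0.26, adjusted p = 0.23), Gm2381 at −0.32 (SE 0.24, adjusted p = 0.41) and Ddx11 at −0.24 (SE 0.12, adjusted p = 0.21).

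The labelling of whole libraries differed between the arms of this line, which bears on each of these values. The median new share over genes at 0 min was 61.5% and 62.6% in Ctrl and 53.9% and 49.9% in dTAG, and the all-gene median difference was −0.16 in new and 0.16 in old RNA. The part of library labelling in the new and old differences of these genes was not tested. In the odds of new against old RNA, where the all-gene median was −0.39 and limma called 24.1% of genes lower and 2.53% higher, Gm2381 was lower by −0.70 (SE 0.19, adjusted p = 0.015). The odds of Acp2 (−0.47, SE 0.35, adjusted p = 0.33) and Ddx11 (−0.35, SE 0.19, adjusted p = 0.175) did not pass, so that a larger difference in new than in old RNA was not shown for them. At 0 min the log2 difference was −0.92 ± 0.18 in new and −1.44 ± 0.79 in old RNA for Acp2, and −0.34 ± 0.04 and −0.36 ± 0.03 for Ddx11 (mean ± SD of 2 pairs). The call of Gm2381 was lost when the odds were divided by the library median (−0.23, adjusted p = 0.16) and without either replicate (adjusted p = 0.097 and 0.067). With the odds so divided, Idh2 was higher by 0.49 (adjusted p = 0.031). With the replicate number as a block, new Cpne1 RNA also passed (−0.38, limma adjusted p = 0.0031; 0.26 with no block), and so did its odds (−0.46, adjusted p = 0.015). New Cpne1 RNA passed too without replicate 2 (−0.47, adjusted p = 0.019), and new Mipol1 RNA without replicate 1 (−0.50, adjusted p = 0.0071).

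Depletion of ZCCHC8, the NEXT scaffold, moved the 7 genes in both directions. Mipol1, Idh2 and Cpne1 fell, and Irgq, Gm2381 and Ddx11 rose. edgeR called 20.4% of 13413 genes lower and 19.1% higher in this line, 39.6% in all, so that a call was common, and 6 of the 7 were called. The replicates of a group also lay closer together here, so that small differences could pass. The chi-square per degree of freedom between their counts, which also grows with depth, was 2.45 to 4.49. It was 20.3 to 77.9 in the METTL3 and 26.6 to 38.5 in the YTHDC1 line. When each replicate's 3 chase times were added together, Mipol1, Irgq and Gm2381 kept their calls, and Cpne1 (edgeR adjusted p = 0.094), Idh2 (0.096) and Ddx11 (0.094) lost them. The median over the 7 was 0.08.

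Mipol1 had the largest of these falls, from 17.1, 19.4 and 20.8 CPM in Ctrl to 8.26, 11.5 and 12.95 CPM in dTAG, with no overlap (−0.78 with SE 0.10, lower in 6 of 6 pairs, edgeR adjusted p = 1.1e-06). All dTAG libraries lay below Ctrl for 3.07% of genes in this line. Idh2 stood at 141.3, 175.7 and 219.5 CPM in Ctrl and at 118.6, 144.6 and 177.2 CPM in dTAG (−0.25, SE 0.07, adjusted p = 0.0045, lower in 6 of 6 pairs), and its arms overlapped. Cpne1 differed by −0.14 (SE 0.05, adjusted p = 0.032), and without replicate 1 by −0.05 (adjusted p = 0.49).

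Irgq, in turn, rose from 6.37, 8.325 and 11.4 CPM in Ctrl to 11.9, 13.15 and 15.9 CPM in dTAG, again with no overlap (0.61 with SE 0.11, higher in 6 of 6 pairs, edgeR adjusted p = 0.00010). All dTAG libraries lay above Ctrl for 5.67% of genes. Gm2381 stood at 33.8, 44.7 and 52.5 CPM in Ctrl and at 51.3, 54.1 and 62.7 CPM in dTAG (0.35, SE 0.06, adjusted p = 0.00010, higher in 6 of 6 pairs), so that only the highest Ctrl library entered the dTAG range. Ddx11 differed by 0.16 (SE 0.06, adjusted p = 0.045), and without replicate 2 by 0.19 (adjusted p = 0.16). The log2 differences of Ddx11 per pair of libraries were 0.02 and −0.07 at 0 min, 0.01 and 0.18 at 90 min, and 0.52 and 0.33 at 180 min. Acp2 did not pass (0.08, adjusted p = 0.48), with 15.85 to 22.7 CPM in Ctrl and 18.02 to 21.75 CPM in dTAG.

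The 2 largest responses to ZCCHC8 depletion were present in new and old RNA alike. New Mipol1 RNA fell by 0.71 (SE 0.14, limma adjusted p = 0.00044) and old Mipol1 RNA by 0.84 (SE 0.15, adjusted p = 0.00096) on the log2 scale. Irgq, fitted without the minimum of reads, rose by 0.49 in new (SE 0.13, adjusted p = 0.0045) and by 0.74 in old RNA (SE 0.18, adjusted p = 0.0073), where 10.9% and 14.0% of genes were called higher. New Gm2381 RNA rose by 0.27 (SE 0.08, adjusted p = 0.00995) and old Gm2381 RNA by 0.45 (SE 0.12, adjusted p = 0.018).

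New and old RNA of Cpne1 went apart in this line. New Cpne1 RNA stood at 37.1, 57.6 and 66.75 CPM in Ctrl and at 30.25, 40.5 and 49.7 CPM in dTAG (−0.44, SE 0.07, limma adjusted p = 8.5e-05, lower in 6 of 6 pairs). Old Cpne1 RNA stood at 32.9, 41.2 and 48.15 CPM in Ctrl and at 37.3, 46.5 and 54.2 CPM in dTAG (0.17, SE 0.08, adjusted p = 0.15). The odds of new against old RNA were lower by −0.61 (SE 0.12, adjusted p = 0.048), in a comparison in which 0.419% of 8824 genes were called lower and the all-gene median was −0.15. That call was lost with the odds divided by the library median (−0.45, adjusted p = 0.074) and without either replicate (adjusted p = 0.35 and 0.26).

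Old Idh2 RNA fell as well (−0.24, SE 0.07, limma adjusted p = 0.020). In all, new RNA was called lower in 2 and higher in 1 of 6 genes, beside 20.6% and 8.47% of all genes (29.1% together), and old RNA likewise in 2 and 1, beside 8.48% and 14.4%. The calls in old RNA were lost without replicate 1 (adjusted p = 0.099 for Mipol1, 0.34 for Gm2381 and 0.056 for Idh2), and without replicate 2 only that of Mipol1 was kept. New Gm2381 RNA did not pass without replicate 2 (0.29, adjusted p = 0.072). New Idh2 RNA (−0.27, adjusted p = 0.096) passed with the replicate block (adjusted p = 0.011) and without replicate 1 (−0.32, adjusted p = 0.012). The loss of label through the chase was not called for any of 6 genes in either the METTL3 or the ZCCHC8 line, with 0 at an unadjusted p under 0.05, where limma called 0.324% and 0% of genes. In the ZCCHC8 line the median gene kept 111.4% and 91.1% of its starting share in Ctrl and 101.1% and 101.4% in dTAG. With so little loss, a change in its rate could hardly be shown in that line.

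Whether METTL3 and ZCCHC8 depletion differed in their effect was tested over the 24 libraries of both lines. edgeR called 4 of the 7 genes, beside 21.1% of 13606 genes. The METTL3 response was lower than the ZCCHC8 response by −1.02 in Gm2381 (SE 0.19, edgeR adjusted p = 0.00060), by −0.88 in Acp2 (SE 0.15, adjusted p = 0.00027) and by −0.54 in Ddx11 (SE 0.11, adjusted p = 0.00096). It was higher by 0.65 in Mipol1 (SE 0.17, adjusted p = 0.0098), a call that was lost without replicate 1 (0.32, adjusted p = 0.11). Idh2 (0.27, adjusted p = 0.13) passed with the replicate block (adjusted p = 0.030) and without replicate 1 (0.42, adjusted p = 4.6e-05). Irgq (−0.36, adjusted p = 0.38) and Cpne1 did not pass, and the difference in Cpne1 was 0.00 with an SE of 0.14. Differences from the response to YTHDC1 depletion were not tested, since that response chose the genes.

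Set side by side, no gene was called in the same direction in both tested lines, although Mipol1 was called lower in both without replicate 1. Acp2, Gm2381 and Ddx11, lower in the YTHDC1 line, were called lower after METTL3 depletion, and of these Gm2381 and Ddx11 were called higher after ZCCHC8 depletion. Mipol1, Idh2 and Cpne1 were called lower after ZCCHC8 depletion and not after METTL3 depletion. Irgq, lower in the YTHDC1 line, was called higher after ZCCHC8 depletion. Over the 12 log2 differences per pair of libraries in the METTL3 and ZCCHC8 lines, correlations between the genes ran from −0.70 to 0.87 with a median of 0.00, as a description of libraries that share replicates and depth.

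The genes beside them give a measure of how local the differences were. In the YTHDC1 line Rbm12, which starts 13 bases from Cpne1, averaged 150.0 ± 15.5 CPM in Ctrl against 158.6 ± 18.75 CPM in dTAG (mean ± SD of 6 libraries) and did not pass (0.08, SE 0.10, edgeR adjusted p = 0.77), against −1.21 in Cpne1. Prps1l3, which starts 15 bases from Mipol1, averaged 137.1 ± 27.5 CPM in Ctrl against 135.9 ± 21.9 CPM in dTAG (−0.01, SE 0.14, adjusted p = 0.99), against −1.36 in Mipol1. Gm28036, annotated across both Cpne1 and Rbm12 on the same strand, was lower (−0.48, SE 0.07, adjusted p = 0.0027), and its reads cannot be told apart from theirs where exons coincide. Spag4, which faces the end of Cpne1 from the opposite strand at 1225 bases, was lower too (−0.92, SE 0.21, adjusted p = 0.030) at only 2.01 ± 0.75 CPM in Ctrl.

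These were the 2 of 9 tested neighbours called in the YTHDC1 line, beside 5.36% of all genes. With the replicate block 3 of 9 were called, beside 28.2% of all genes, and the third was Xrcc1 beside Irgq (−0.25, adjusted p = 0.0024, and 0.40 with no block). Zfp710 beside Idh2 (−0.22), Nr1h3 (0.23) and Ddb2 (−0.12) beside Acp2, and Washc1 beside Ddx11 (0.17) did not pass in either fit. In the METTL3 line edgeR called 0 of 9 neighbours, 1 at an unadjusted p under 0.05, and DESeq2 called 0. With the replicate block 4 of 9 passed there, beside 48.8% of all genes. Nr1h3, which starts 51 bases from Acp2 in the opposite direction, was among them with 0.99 (SE 0.40, adjusted p = 0.011 with the block and 0.11 with no block) at 0.61 ± 0.35 CPM in Ctrl. In the ZCCHC8 line 3 of 8 neighbours were called, beside 39.6% of all genes. Rbm12 rose by 0.25 (SE 0.06, edgeR adjusted p = 0.00077) while Cpne1 fell, Xrcc1 fell by 0.25 (SE 0.06, adjusted p = 0.00098) while Irgq rose, and Spag4 rose from 1.71 ± 0.65 to 7.96 ± 1.935 CPM (2.14, SE 0.20, adjusted p = 6.1e-09).

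**Figure D5:**
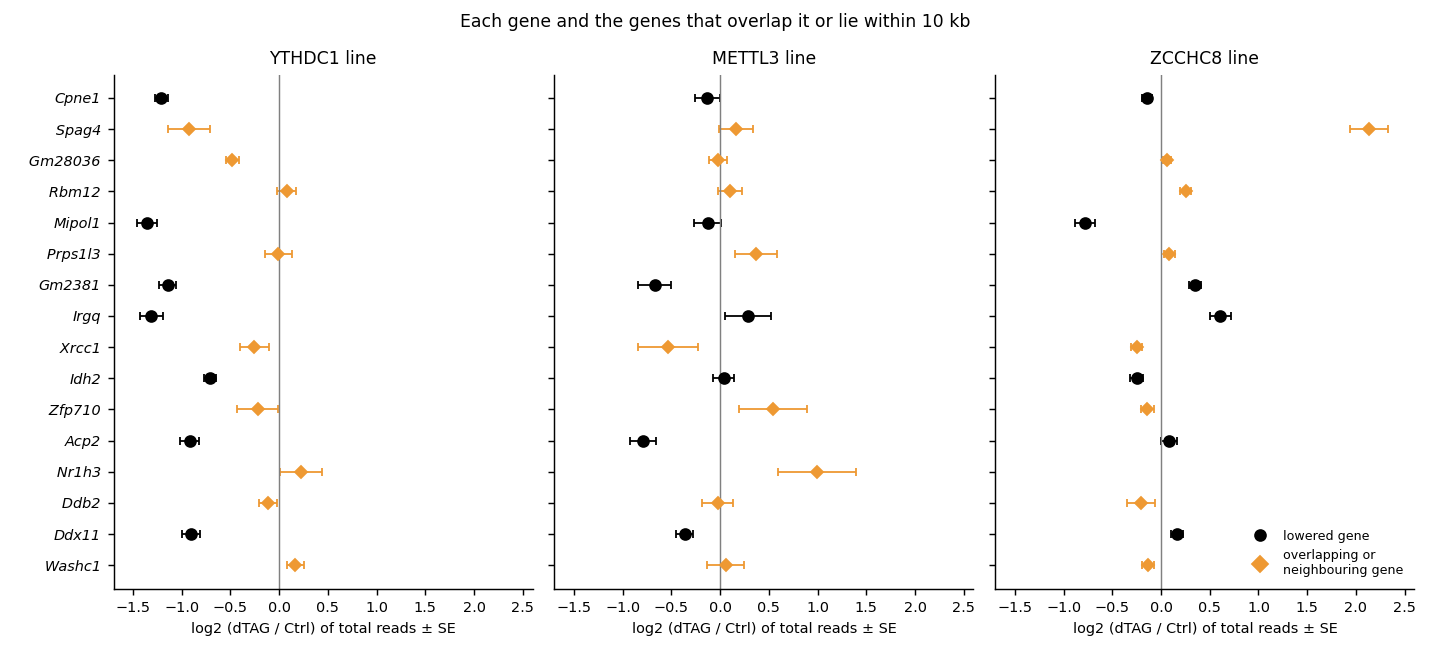
Log2 difference in total reads (dTAG over Ctrl, with SE) of the 7 genes (black circles) and of each tested gene that overlaps one or lies within 10 kb of it (orange diamonds, listed under its gene), in the 3 lines. Rbm12 and Prps1l3 lie near 0 in the YTHDC1 line beside Cpne1 at −1.21 and Mipol1 at −1.36, and Spag4 is the point farthest to the right in the ZCCHC8 line.

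Genes related in function to 5 of the 7 were counted from fixed lists to see how far the families moved with them. In the YTHDC1 line edgeR called 0 of 6 copines, with 2 at an unadjusted p under 0.05 and 0 by DESeq2. It called 0 of 22 citric acid cycle genes and 0 of 22 genes of iron-sulphur helicases and sister chromatid cohesion, with 1 and 5 at an unadjusted p under 0.05 and 1 and 1 by DESeq2. Of 16 genes of the immunity-related GTPases and of the autophagy machinery, 1 was lower, the autophagy gene Becn1 (−0.33, SE 0.08, adjusted p = 0.042). With the replicate block, 4 of 6 copines (3 of them lower), 4 of 22 citric acid cycle genes and 9 of 22 cohesion genes were called, beside 28.2% of all genes (5.36% with no block).

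Of 23 lysosomal genes, 2 were lower and 3 higher in the YTHDC1 line, where 2.92% and 2.44% of all genes were called. Ctsa, which encodes cathepsin A, was lower (68.2 ± 9.63 CPM in Ctrl against 43.6 ± 6.37 CPM in dTAG, −0.65, SE 0.08, edgeR adjusted p = 0.0013), and so was Glb1, the lysosomal beta-galactosidase (−0.61, SE 0.07, adjusted p = 0.0013). Lipa, the lysosomal acid lipase (0.59, SE 0.12, adjusted p = 0.014), and Lamp2, a lysosomal membrane protein (0.38, SE 0.09, adjusted p = 0.037), were among those higher. The median over this list was 0.01. With the replicate block 30 of the 89 related genes were called in place of 6, 21 of them lower, beside 28.2% of all genes in place of 5.36%.

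In the ZCCHC8 line 15 of 22 citric acid cycle genes were lower and 0 higher (median −0.18, all genes −0.01), as was Idh2, beside 20.4% of all genes. The other lists were divided there, with 7 lower and 5 higher of 23 lysosomal genes, 5 and 5 of 22 cohesion genes, 3 and 5 of 16 autophagy genes and 1 and 1 of 6 copines. After METTL3 depletion 2 of 22 citric acid cycle genes were lower and 0 higher, 1 and 6 of 23 lysosomal genes, 3 and 1 of 16 autophagy genes, 2 and 2 of 22 cohesion genes and 1 and 1 of 6 copines, beside 8.66% and 11.2% of all genes. In that line 19 of 89 related genes were called, beside 19.9% of all genes, and 37 with the replicate block, beside 48.8%.

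Outside these lists, the gene whose pattern over 18 log2 differences was most like the median of the 7 was Gm28036 (Pearson r = 0.96 among 8758 genes compared), which overlaps Cpne1. It was followed by Chml (r = 0.94), at −1.17 (SE 0.14) in the YTHDC1 line, 0.02 (SE 0.21) in the METTL3 line and 0.20 (SE 0.06) in the ZCCHC8 line. Elobl (r = 0.93), Lbhd1 (r = 0.93) and Mettl2 (r = 0.93) came next. Of the 18 differences, 6 are those of the YTHDC1 line, which chose the 7 genes. The choice thus shapes the median pattern, and the ranking is a description only. The correlation compares the shape of the pattern and not its size, and Elobl stood at only −0.15 (SE 0.13) in the YTHDC1 line with 0.94 (SE 0.18) and 1.08 (SE 0.14) in the METTL3 and ZCCHC8 lines.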

How the data were processed

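The authors discarded ribosomal reads, aligned the rest to mm10 with STAR 2.5.2b (unique end-to-end alignments, mismatch limit 0.06 of the read, which can remove strongly labelled reads) and ran GRAND-SLAM per line and replicate. Its version, the annotation release and strand use are not given in the sources used here. The deposited counts are raw reads per gene, the deposited new-to-total ratio is a fraction from 0 to 1 (maximum of the posterior, MAP), and the deposited conversion and coverage sums are a score kept to 4 significant digits, of which only the T-to-C share was used. Of the sample columns 252 were used and 180 were not.

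Genes listed in both tables of a line were tested with edgeR 4.0.16 (filterByExpr, TMM, quasi-likelihood test, chase time and arm). New and old RNA, as reads times the ratio or its complement, were tested with limma 3.58.1 on log2(CPM + 0.5) for genes with a mean of at least 100 reads, and the ratio as log2 odds, held between 0.01 and 0.99, or as a slope per h. CPM used TMM-scaled totals. Adjusted p values are Benjamini-Hochberg over all genes tested, and 0.05 was the threshold. Fits were tested on simulated data. The simulated libraries shared no replicate effect, so error rates for libraries that share replicates were not tested. The labels do not say that replicates were separate cultures, so p values measure the spread between these libraries, which may be technical. Intervals cover counting error only.

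The 7 genes, the lists and the tests were chosen with earlier results of these data known. The text names the 7 genes, their tested neighbours within 10 kb, up to 4 genes per related list by size of change among those called in the YTHDC1 line, the tagged genes, genes next in order and the 5 genes of most like pattern. Some genes that these rules would name are not reported here. Annotation and transcripts were GENCODE M21, which placed 22925 of 22979 genes, and promoters RefSeq GRCm38.p6, which held 4 of the 7 genes. Replicate numbers were checked for pairing: deviations of same-numbered libraries correlated at 0.67 to 0.96 in the METTL3, 0.67 to 0.89 in the YTHDC1 and 0.14 to 0.41 in the ZCCHC8 line, so the numbers were taken to pair the libraries. The main fits nevertheless left the replicate number out, and only the block took it in. The chase libraries of a replicate are thus not independent in the main fits or in the counts of pairs. Alternatives were DESeq2 1.42.0, RLE size factors, no low-count filter, the block, each replicate left out, summed chase libraries, the posterior mean, a pseudocount of 2, other ratio limits and 0 min libraries alone.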

Additional observations from a re-analysis of the deposited data

Results flagged for a closer look

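The responses of 4 genes to METTL3 and to ZCCHC8 depletion differed in a test of the difference itself (edgeR interaction over 24 libraries). Gm2381 fell after METTL3 depletion and rose after ZCCHC8 depletion, a difference of −1.02 on the log2 scale. Ddx11 was called in the same directions, with a difference of −0.54. Its rise after ZCCHC8 depletion was small (0.16) and not seen at 0 min, and that call was lost with summed chase libraries. Acp2 fell after METTL3 depletion and did not pass in the ZCCHC8 line (−0.88). Mipol1 fell after ZCCHC8 depletion and did not pass in the METTL3 line (0.65). Each of the 2 lines is 1 clone with its own libraries, so the clone and the depleted protein cannot be told apart in these differences.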

How the results depend on the processing

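Of the values of single genes under alternatives, 604 kept their side of the threshold, 33 lost a call, 11 gained one, and 9 untested values moved by more than the replicate spread. The sign changed in 32, all among the 604 and none of them called in either setting. The farthest of these was the odds of new against old RNA of Acp2 in the METTL3 line, from −0.47 to 0.52 with 0 min libraries alone. After METTL3 depletion, total reads called 3 to 5 of the 7 genes with a replicate left out (5 without replicate 1) and 0 with summed chase libraries, a setting in which 0 of all genes passed. After ZCCHC8 depletion 3 of 7 passed with summed libraries, in place of 6. With 0 min libraries alone, new RNA gave 0 of 6 calls in the METTL3 and 1 in the ZCCHC8 line in place of 3 and 3, old RNA 1 in the ZCCHC8 line in place of 3, and the odds of new against old RNA 0 in both in place of 1 and 1. Fewer libraries entered these fits. Old RNA in the ZCCHC8 line gave 0 to 1 calls with a replicate left out, and the odds 0 to 0 in both lines. Dividing the odds by the library median left 0 calls in the ZCCHC8 line. Of the neighbours, 2 to 5 were called in the YTHDC1 line with a replicate left out, and of the related genes 9 to 25, the higher counts without replicate 1. The median slope of the new share in Ctrl libraries over the 7 genes was −0.01 log2 per h, and 0.10 once divided by the library median. The cause of these changes was not tested.

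The replicate block raised calls over all genes from 2751 to 6749 in the METTL3 line, from 734 to 3857 in the YTHDC1 line and from 2871 to 5684 in the test between METTL3 and ZCCHC8, those in new RNA from 1443 to 4032 and from 285 to 1591 and in old RNA from 1729 to 3807 and from 77 to 1313 in the METTL3 and YTHDC1 lines, the odds calls in the METTL3 line from 1 to 2 of 6 and the related genes from 6 to 30. Beyond the calls given with the results, it changed no other tested call of the 7 genes. With replicate 1 or 2 left out, all-gene calls in total reads were 7398 and 5627 for METTL3, 3578 and 1356 for YTHDC1, and 4986 and 3270 for ZCCHC8 (5305 with both), and DESeq2 called 1149 in the YTHDC1 line. Summed libraries left 0 of all genes in the YTHDC1 line. Irgq, at 66.9 to 81.8 reads per library, was limited by depth in new and old RNA.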
